A study of Mus musculus with 8 samples.

Results

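Respiratory complex I genes were taken here as the autosomal mouse genes with a curated RefSeq mRNA whose symbol starts with Nduf. There were 46 such genes among 20021 autosomal genes. Of these, 7 encode core subunits and 8 assembly factors (symbols starting with Ndufaf). The other Nduf symbols, 29 in number, were counted as accessory subunits, including Ndufb4c, whose protein was not checked here. Ndufa4 and Ndufa4l2 fall in none of these classes. Open chromatin was measured by ATAC-seq, in which the Tn5 transposase inserts adapters into DNA not wrapped in nucleosomes, in nuclei of whole brown adipose tissue (BAT). WT mice were Dot1l f/f littermates, and Dot1L-BKO mice carried the same floxed alleles together with Ucp1-Cre, which removes the histone H3K79 methyltransferase Dot1l from Ucp1+ cells. There were 2 mice of each genotype, 12 weeks old, fed chow and killed after 4 hr at 4°C.

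The data used here are a single deposited list of 32173 peak summits made from the 4 ATAC-seq libraries, each with the −log10 of its q-value from the peak caller MACS2, called the score here. The list sets WT against Dot1L-BKO libraries, and which of them MACS2 took as its control is not known here, so that a score may reflect a contrast between the genotypes rather than openness in both, and a promoter equally open in both may score low or be missing. Separate values for the libraries are not given, so that read depth is unknown, replicate error cannot be stated and the genotypes cannot be compared. Whether Dot1l was lost in the Dot1L-BKO libraries cannot be checked from the list either. Nuclei of all cell types of the tissue were included, and a low score from few open cells cannot be told apart from a low score from weak opening in every cell. All 8 of 8 adipocyte markers had a summit within 1 kb of a transcription start site (TSS), with scores from 6.02 to 61.5. They include Adipoq, Plin1 and Pparg, which are not specific to brown adipocytes. Such a summit was found in 46.8% of all autosomal genes. It was found in 1 of 4 endothelial markers (Cdh5, 2.59), 1 of 4 leukocyte markers (Cd68, 2.15) and 0 of 4 skeletal muscle markers.

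Complex I is the entry point of the mitochondrial respiratory chain. It oxidizes NADH, passes the electrons through a flavin and a row of iron-sulfur clusters to ubiquinone in its peripheral arm, and pumps protons through its membrane arm. The core subunits of the peripheral arm carry this chemistry and are nuclear genes, the core subunits of the membrane arm are encoded by mitochondrial DNA, the accessory subunits surround the core, and the assembly factors help to build the enzyme without staying in it. In BAT, NADH from fatty acid oxidation feeds the chain, and Ucp1 lets protons back across the membrane so that the energy is released as heat.

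Sequences upstream of 7 members are shown first because the results turn on their promoters. They come from the RefSeq promoter table, build GRCm38 (mm10), and are written 5′ to 3′ on the strand of the gene, each within the 250 bases before the TSS and free of annotated exons. Ndufs8 and Ndufv2 are core genes with a high-scoring summit inside the stretch, Ndufa6 and Ndufb2 are accessory genes of equal score with the summit inside, Ndufs5 and Ndufb4 hold the letters of an NRF1 motif, and Ndufa9 is shown as a member with no summit. Capitals mark exact letters, on either strand, of CCAAT, the SP motif GGGCGG, the CRE motif TGACGTCA or the NRF1 motif GCGCANGCG.
Ndufs8, chr19:3912775-3912894, minus strand: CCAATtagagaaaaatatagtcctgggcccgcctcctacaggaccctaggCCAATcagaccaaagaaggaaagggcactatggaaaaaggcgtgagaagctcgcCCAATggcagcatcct
Ndufv2, chr17:66101560-66101679, minus strand: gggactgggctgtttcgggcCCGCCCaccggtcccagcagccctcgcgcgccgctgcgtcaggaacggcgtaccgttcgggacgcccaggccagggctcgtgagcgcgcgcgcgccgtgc
Ndufa6, chr15:82354323-82354442, minus strand: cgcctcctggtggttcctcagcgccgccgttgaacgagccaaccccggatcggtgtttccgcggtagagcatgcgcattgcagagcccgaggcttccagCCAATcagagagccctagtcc
Ndufb2, chr6:39592445-39592564, plus strand: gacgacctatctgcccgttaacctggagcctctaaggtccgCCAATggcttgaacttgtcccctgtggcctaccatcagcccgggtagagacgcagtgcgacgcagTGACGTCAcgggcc
Ndufs5, chr4:123718203-123718322, minus strand: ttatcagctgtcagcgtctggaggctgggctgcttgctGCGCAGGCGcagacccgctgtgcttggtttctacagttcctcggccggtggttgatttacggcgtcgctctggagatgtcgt
Ndufb4, chr16:37654454-37654573, minus strand: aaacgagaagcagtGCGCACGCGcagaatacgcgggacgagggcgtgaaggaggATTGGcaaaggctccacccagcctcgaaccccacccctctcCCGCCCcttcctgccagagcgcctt
Ndufa9, chr6:126849145-126849264, minus strand: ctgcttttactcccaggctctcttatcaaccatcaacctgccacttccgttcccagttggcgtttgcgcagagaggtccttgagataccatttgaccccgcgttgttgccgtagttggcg
The Ndufs8 stretch held CCAAT at 3 places and its summit fell on base 38 of the 120. The summit was at base 3 in Ndufv2, base 44 in Ndufa6 and base 86 in Ndufb2. None of the searched letters was in the Ndufa9 stretch.

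A summit lay within 1 kb of a TSS, called a promoter summit below, in 41 of the 46 genes (89.1%, 95% Wilson interval 77.0 to 95.3). The same share over all autosomal genes was 46.8%. By class, 6 of 7 core genes (85.7%, interval 48.7 to 97.4), 27 of 29 accessory genes (93.1%, 78.0 to 98.1) and 7 of 8 assembly factors (87.5%, 52.9 to 97.8) had a promoter summit, and the intervals of the classes overlapped. These intervals cover counting error over genes only. The genes of complexes II to V had one in 41 of 47 (87.2%), mitochondrial ribosomal proteins in 67 of 78 (85.9%) and cytosolic ribosomal proteins in 74 of 80 (92.5%), so that the share among complex I genes lay in the range of other nuclear genes for mitochondrial and ribosomal proteins. At a score of 5 or more, 41 of 46 members still had a promoter summit, compared with 37.5% of all genes. At a score of 10 or more, 28 of 46 did (60.9%, 46.5 to 73.6), compared with 24.5% of all genes. At that minimum the share was 61.7% for complexes II to V, 51.3% for mitochondrial and 66.2% for cytosolic ribosomal proteins.

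**Figure D1:**
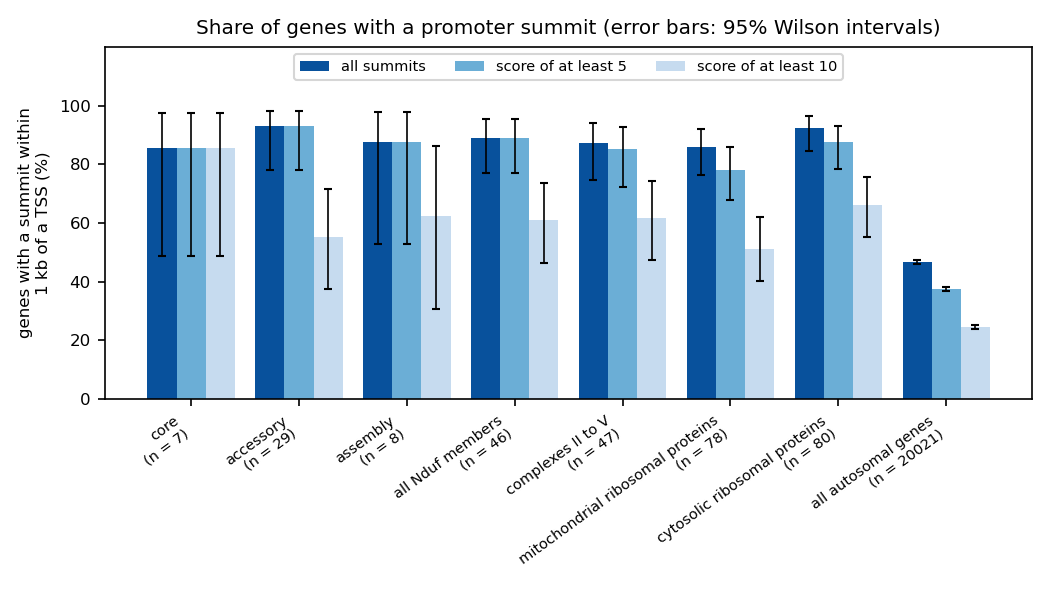
Share of genes with a promoter summit (vertical axis, percent) for the classes of complex I genes, for other gene lists and for all autosomal genes. Dark bars count all summits and paler bars those with a score of at least 5 or 10, error bars are 95% Wilson intervals. The core class stays at 85.7% at each minimum, while the accessory class drops from 93.1% to 55.2% at a score of at least 10.

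Between the classes, the score of the promoter summit varied more than its presence. Where a gene had several promoter summits the highest was used. The median score was 14.0 over the 41 members (quartiles 8.65 and 28.5), compared with 10.9 over the 9371 genes with a promoter summit (quartiles 5.68 and 20.9). The median was 16.7 for complexes II to V, 11.5 for mitochondrial and 14.0 for cytosolic ribosomal proteins. It was 33.3 in the 6 core genes (range 21.6 to 37.9), 12.1 in the 27 accessory genes (5.0 to 47.6) and 13.4 in the 7 assembly factors (6.02 to 55.7). All 6 core genes with a summit scored above the upper quartile of all genes, as did 6 of 27 accessory genes and 2 of 7 assembly factors. Of the accessory genes, 22.2% scored above the lowest core gene, as did 23.7% of all genes with a promoter summit. The accessory subunits of the peripheral arm, where the core subunits of the list also sit, had a median of 11.6 (8 genes) and those of the membrane arm 12.1 (18 genes). Every core gene of the list is in the peripheral arm, whose 14 genes with a summit had a median of 22.4 with the core genes included, against 33.3 for the core genes alone. With 6 core genes and no values per library, the difference in score between core and accessory genes was not tested.

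**Figure D2:**
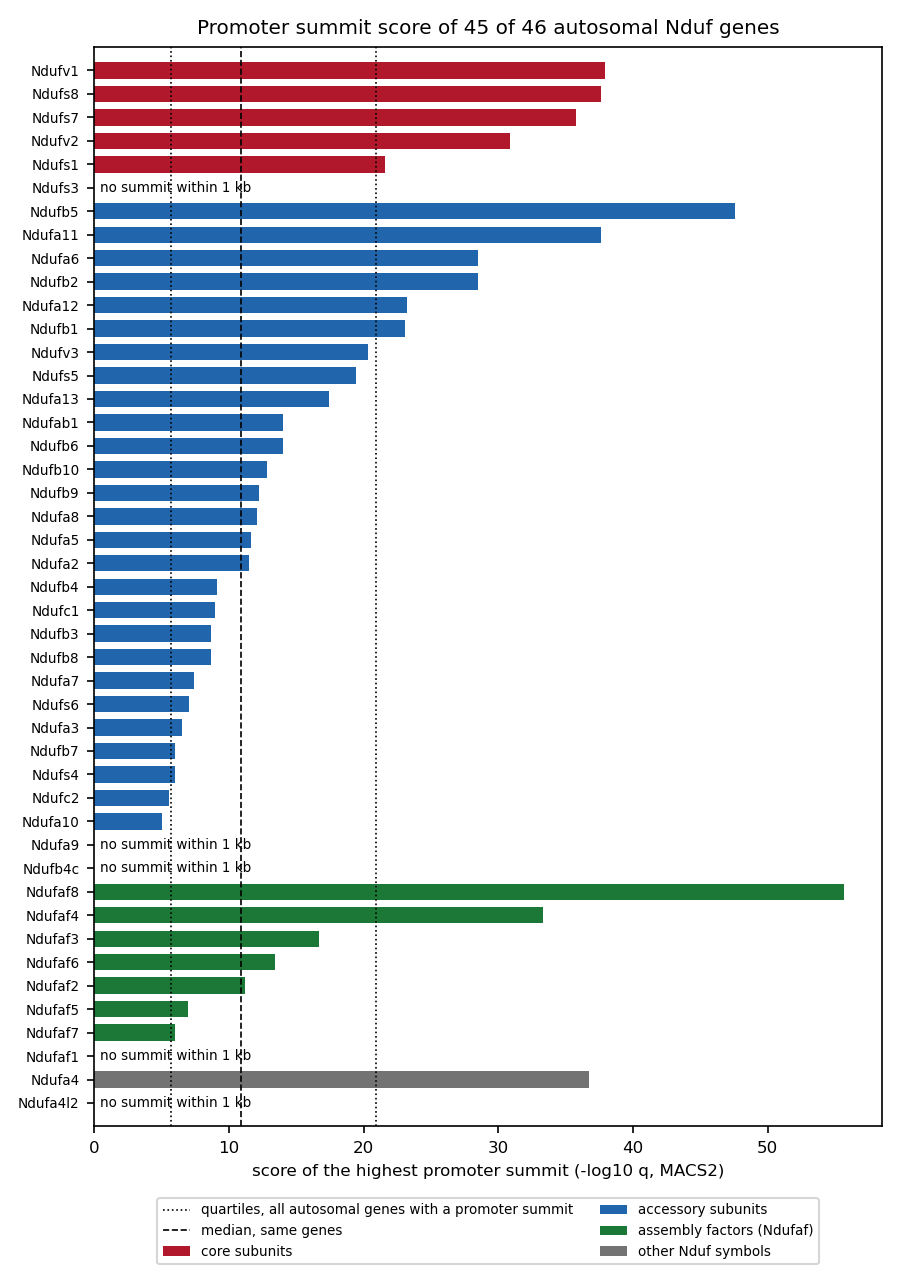
Score of the highest promoter summit (horizontal axis, −log10 q) of 45 of the 46 genes, ordered by score within core, accessory, assembly and other genes. The dashed line is the median over all autosomal genes with a promoter summit (10.9) and the dotted lines are their quartiles (5.68 and 20.9), and each core bar drawn passes the upper dotted line.

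Among the core genes, Ndufv1, which binds the flavin that takes electrons from NADH, had the highest score, 37.9, at a summit 43 bp upstream of the TSS. Its partner in the NADH module, the iron-sulfur protein Ndufv2, scored 30.9 at 118 bp upstream. Ndufs1, the largest iron-sulfur subunit, scored 21.6 at 15 bp upstream, the lowest of the core genes with a summit. That summit lies in an exon of the neighboring gene Eef1b2, a translation elongation factor whose TSS is 9 bp from that of Ndufs1.

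Ndufs8 and Ndufs7, core subunits of the quinone module, were similar in height. Ndufs8, which carries iron-sulfur clusters near the end of the electron path, scored 37.6 at 83 bp upstream, within the sequence printed above. Ndufs7, which holds the last cluster before ubiquinone, scored 35.8 at 100 bp upstream. These summits ranked 1013 (Ndufs8) and 1176 (Ndufs7) of all 32173.

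Ndufs3, another subunit of this module, was the exception among the core genes. It spans 90894627 to 90904721 on the minus strand of chromosome 2 and had no summit within 10 kb of its TSS, the nearest being 12685 bp away with a score of 3.73. Kbtbd4, whose TSS lies within 1 kb of that of Ndufs3, had no promoter summit either. Of the 5 other genes with a TSS within 100 kb, 3 had one (Celf1, Mtch2 and Ptpmt1).

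The accessory genes spread widely. Ndufb5, a subunit of the membrane arm, had the highest score, 47.6, at 161 bp upstream, between its TSS and that of the mitochondrial ribosomal protein gene Mrpl47 on the opposite strand. Ndufa11, also of the membrane arm, followed with 37.6, but at 571 bp upstream, in an intron of Vmac and nearer to the Vmac TSS. Ndufa6 of the peripheral arm and Ndufb2 of the membrane arm tied at 28.5, at 108 and 35 bp upstream. Ndufa12, a late-joining subunit of the peripheral arm, scored 23.2 at 140 bp inside the gene. Except for Ndufa12, these summits lay upstream of the TSS.

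At the lower end were Ndufa10 with 5.0, Ndufc2 with 5.55, Ndufs4 and Ndufb7 with 6.02 each and Ndufa3 with 6.53. Ndufs4, a peripheral arm subunit whose loss causes Leigh syndrome-like disease in mice, had its summit in an intron 345 bp downstream of the TSS. Ndufc2, Ndufb7 and Ndufa3, all of the membrane arm, had theirs 101, 41 and 38 bp downstream. Ndufa10, also of the membrane arm, was the only member with promoter summits at 2 places, the higher 345 bp upstream and the other, with a score of 2.03, at 436 bp inside the gene. By comparison, 18% of all genes with a promoter summit had 2 or more. The remaining 17 accessory genes with a summit scored between 7.05 (Ndufs6) and 23.1 (Ndufb1).

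There were 2 accessory genes without a promoter summit. Ndufa9, a subunit at the junction of the arms that binds NADPH, spans 126821863 to 126849144 on the minus strand of chromosome 6, and its nearest summit was 90541 bp away with a score of 8.65. Of the 4 other genes with a TSS within 100 kb of Ndufa9, 2 had a promoter summit (D6Wsu163e and Rad51ap1). Ndufb4c, a gene of 485 bp on chromosome 15 (73809449 to 73809933, minus strand) with a symbol derived from that of Ndufb4, had its nearest summit 52994 bp away with a score of 2.92. How reads that match more than 1 place were treated is not given in the sources used here, and its part in this absence was not tested.

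The assembly factors held the highest score of the 46 genes. Ndufaf8, which stabilizes Ndufaf5, scored 55.7 at 71 bp upstream, rank 407 of the list, between its own TSS and that of Tepsin. Ndufaf5, the enzyme that hydroxylates an arginine of Ndufs7, scored 6.99 at 7 bp upstream, so that these partners stood far apart in score.
Ndufaf4 and Ndufaf3, which act together in building the quinone module, scored 33.3 at 64 bp downstream and 16.7 at 261 bp upstream. Ndufaf6, also an early factor, scored 13.4 and Ndufaf2, a relative of Ndufa12 that holds its place during assembly, scored 11.2. Ndufaf7, a methyltransferase of the early assembly steps, had the lowest score of the class, 6.02. Ndufaf1, which acts on the membrane arm, had no summit within 10 kb, the nearest being 11997 bp away with a score of 5.07, while 3 of the 6 other genes with a TSS within 100 kb had a promoter summit.

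Outside the Nduf symbols, 7 of 10 other autosomal assembly factors had a promoter summit (70.0%, Wilson interval 39.7 to 89.2, which includes the 46.8% of all genes), with a median score of 30.1. Coa1, also on that list, was not matched by symbol and is not among the 10. Whether the summits of these 7 genes also lie near the TSS of another gene was not examined. Ecsit and Tmem126b, which work in the same membrane arm complex as Ndufaf1, scored 46.4 and 41.0, and Timmdc1, Foxred1 and Tmem186 scored 35.0, 30.1 and 21.6. Dmac1 and Dmac2 scored 6.53 and 6.02, and Acad9, Nubpl and Tmem70 had no promoter summit. Of the X-linked subunit genes, which the autosomal rule leaves out, Ndufb11 had a summit of score 10.9 and Ndufa1 had none.

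Ndufa4, long counted with complex I and now assigned to cytochrome c oxidase, scored 36.7 at 173 bp upstream, between its TSS and that of Phf14. Its relative Ndufa4l2, known as a hypoxia-induced gene, had no summit within 1 kb of a curated TSS, but had one when predicted mRNAs were included. Its nearest summits were at 1107 bp inside the gene (score 1.74) and at −1888 bp (score 7.05). Ndufa4l2 was the only one of the 5 members without a promoter summit that had a summit within 10 kb.

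Promoter summits of the members sat close to the TSS. The median distance was 79 bp, compared with 143 bp over all genes with a promoter summit, 95 bp for complexes II to V, 120 bp for mitochondrial and 85.5 bp for cytosolic ribosomal proteins. Within 100 bp of the TSS were 24 of 41 (58.5%, compared with 38.0% over all genes), and within 200 bp 34 of 41 (82.9%, compared with 61.7%). Upstream of the TSS were 25 of 41 (61.0%), close to the 57.2% over all genes. All 6 core summits were upstream, between 15 and 118 bp, whereas 14 of 27 accessory and 4 of 7 assembly summits were. Of the 41 positions, 21 were intergenic, 15 in exons and 5 in introns.

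**Figure D3:**
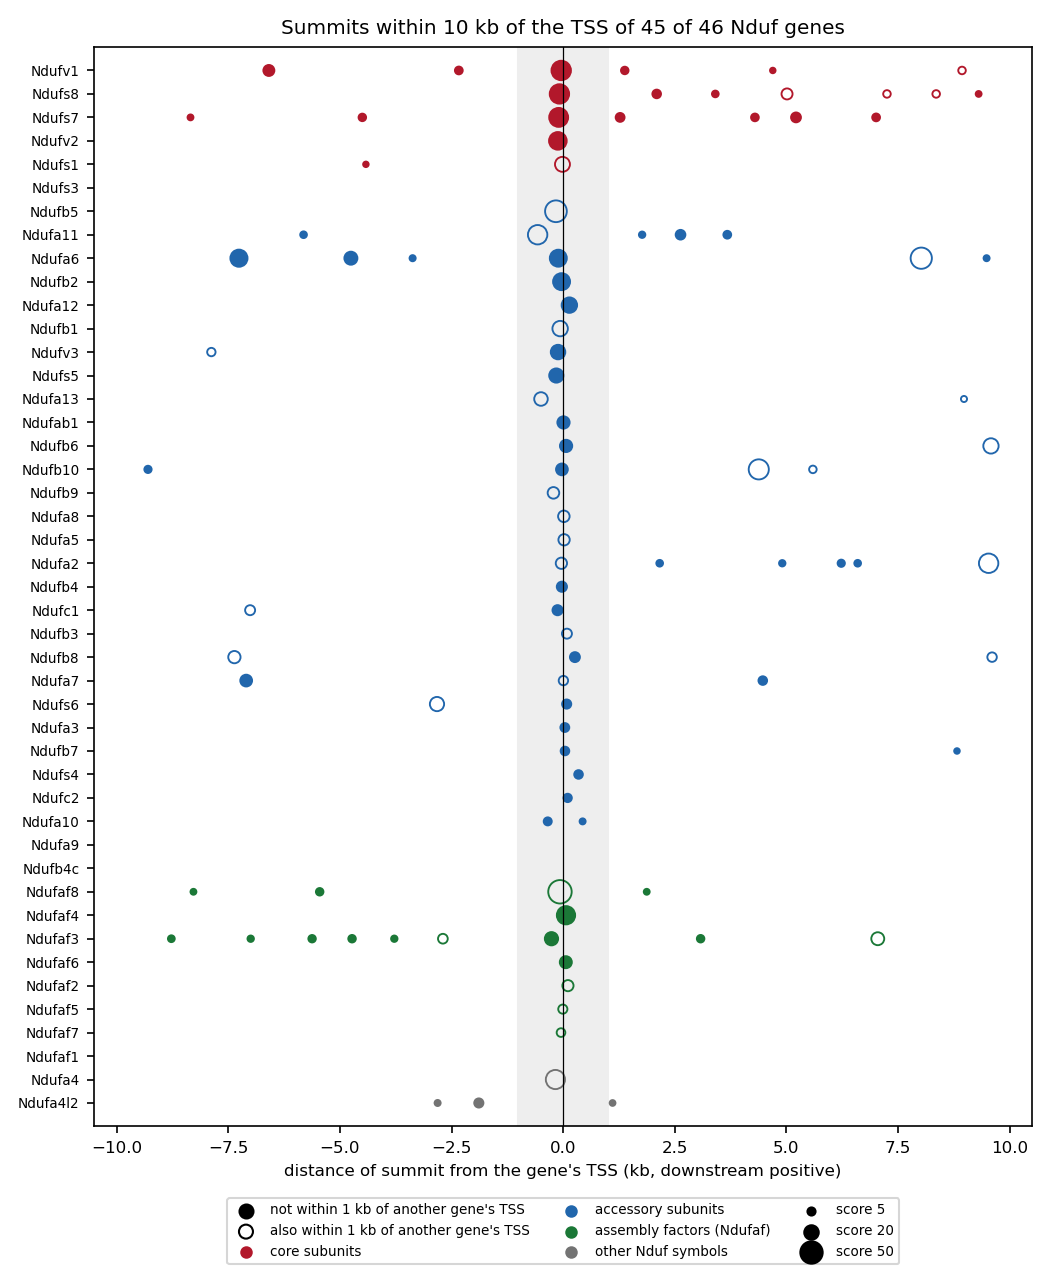
All summits within 10 kb of the TSS of 45 of the 46 genes, plotted by distance (horizontal axis, kb, downstream positive), with the area of each circle growing with the score and its color giving the class. Open circles lie also within 1 kb of another gene's TSS, the gray band marks 1 kb on each side, and most large circles lie in that band beside 0.

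Many of these promoters faced another gene. A TSS of another gene lay within 1 kb in 17 of 46 members (37.0%, compared with 10.4% of all genes), and 16 of these 17 had a promoter summit (94.1%, near the 88.4% of all genes with such a neighbor), the exception being Ndufs3. For complexes II to V this share was 27.7%, for mitochondrial ribosomal proteins 35.9% and for cytosolic ribosomal proteins 15.0%. The summit itself lay within 1 kb of the other TSS in 16 of 41 members (39.0%, compared with 19.3% over all genes), and in all 16 the other gene ran on the opposite strand.

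Beside Ndufs1 and Eef1b2, the pairs included Ndufa7 with the ribosomal protein gene Rps28, whose TSSs are 10 bp apart, Ndufb5 with Mrpl47, and Ndufb1 with Cpsf2, a pre-mRNA cleavage factor. The other accessory pairs were Ndufa2 with Ik, Ndufa5 with Asb15, Ndufa8 with Morn5, Ndufa11 with Vmac, Ndufa13 with Tssk6, Ndufb3 with Fam126b and Ndufb9 with Tatdn1. Among the assembly factors, Ndufaf2 faced Ercc8, a DNA repair gene, Ndufaf5 faced Esf1, Ndufaf7 faced Cebpz and Ndufaf8 faced Tepsin. A summit in such a place cannot be given to either gene from this list alone. Giving each summit only to its nearest TSS took the promoter summit from Ndufa2, Ndufa11, Ndufaf7, Ndufb5, Ndufb9 and Ndufs1, so that the highest accessory score and 1 of the 6 core summits rest on shared positions.

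Widening the window added little. Within 10 kb, 42 of 46 members had a summit (91.3%), compared with 55.8% of all genes. The members had 104 summits within 10 kb, of which 42 were promoter summits. Of the 62 others, 18 lay within 1 kb of another gene's TSS (median score 8.38) and 44 did not (median 3.75). Only TSSs of curated mRNAs were counted for this. There were 13 of 46 members with 3 or more summits within 10 kb, compared with 15.4% of all genes.

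Of the core genes, Ndufs7 and Ndufs8 had 7 summits each and Ndufv1 had 6. Ndufaf3 had the most, 9, of which 5 lay in Wdr6 or Dalrd3 and not at a TSS of another gene, with scores from 2.49 to 4.16. Ndufa2 and Ndufa6 had 6 each, Ndufa11 had 5, Ndufb10 and Ndufaf8 had 4, and Ndufa7, Ndufb8 and Ndufa4l2 had 3. At Ndufa6 an intergenic summit at −7260 bp scored 29.0, about as high as the promoter summit (28.5). It was the highest of the 44 that lay near no other curated TSS. A further intergenic summit at −4753 bp from the Ndufa6 TSS scored 16.0. At Ndufb10, by contrast, the highest summit nearby, with a score of 40.5, was 4381 bp downstream at the promoter of Rps2.

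A summit lay in the gene body in 24 of 46 members (52.2%), compared with 41.2% of all genes. Of their 33 body summits, 17 were promoter summits, and the other 16 fell in 9 genes. Ndufs7 had 4 of these, with scores from 4.46 to 8.45, all lower than its promoter summit. Ndufa11 had 3, from 2.53 to 8.12, while Ndufs8 and Ndufv1 had 2 each, at scores up to 6.02. In Ndufaf6 an intronic summit 21373 bp inside the gene scored 12.2, close to the 13.4 of its promoter summit.

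Promoter windows of 300 bases, 250 before and 50 after the TSS, were in the table for 39 of the 46 members. Their median GC content was 59.3%, compared with 57.0% over 15996 genes, and they held a median of 20 CpG dinucleotides, compared with 14.6. All genes were split by GC content into 5 bands of about equal size, and the share with a promoter summit was 7.87% in the lowest band (up to 46.8% GC) and 70.6% in the highest (from 66.3% GC). Each of these bands held 1 member, which had a promoter summit. Between 54.3% and 59.9% GC, 16 of 16 members had a promoter summit, compared with 56.9% of all genes there. Between 60.0% and 66.2% GC, 15 of 16 had one, compared with 71.4%, and the member without was Ndufs3. Between 47.0% and 54.3% GC, 3 of 5 had one, compared with 33.5%, and those without were Ndufa9 and Ndufaf1.

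The letters of 8 motifs were searched on both strands of these 300-base windows, in which a match is a description and not a site of binding. The motifs were those of NRF1 (GCGCANGCG), ETS factors (CCGGAAG), ERR receptors (AAGGTCA), YY1 (AAGATGGC), SP factors (GGGCGG) and CREB (the CRE, TGACGTCA), together with CCAAT and TATAAA, and none of these holds the letters of another. NRF1 letters were in 10 of 39 member windows (25.6%), compared with 9.02% of 19336 windows of all autosomal genes. YY1 letters were in 8 (20.5%, compared with 3.10%), the CRE in 3 (7.69%, compared with 2.35%) and ERR letters in 3 (7.69%, compared with 3.97%). For the other motifs the shares lay nearer to those of all windows, with ETS letters in 6 (15.4%, compared with 12.1%), SP letters in 20 (51.3%, compared with 48.1%), CCAAT in 13 (33.3%, compared with 38.0%) and TATAAA in 4 (10.3%, compared with 12.5%).

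**Figure D4:**
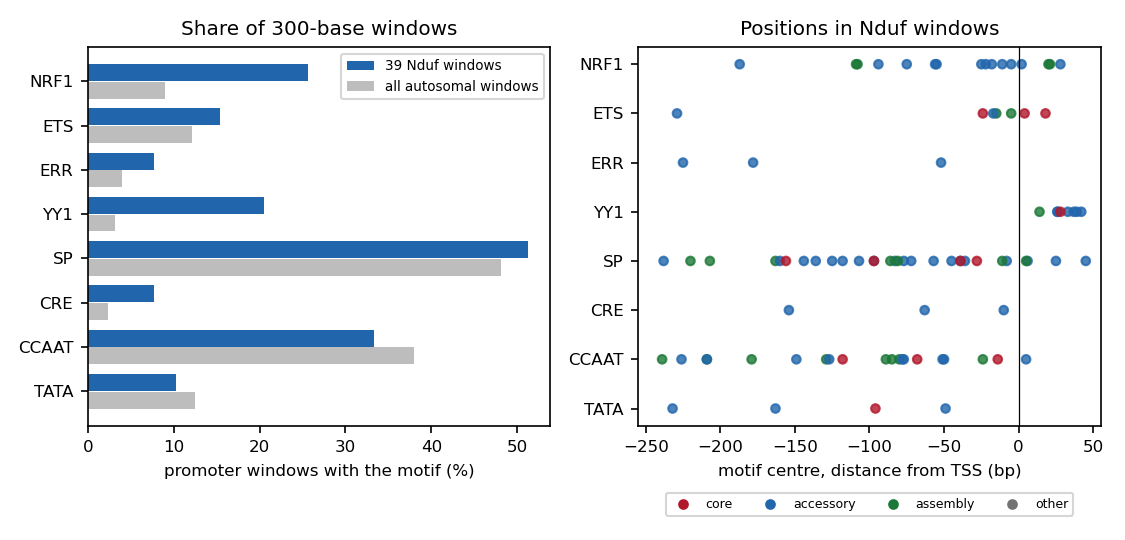
Left, share of 300-base promoter windows (horizontal axis, percent) that hold the letters of each motif, in 39 members and in all autosomal windows. Right, distance of each match in the member windows from the TSS (horizontal axis, bp, downstream positive), colored by class, where the YY1 matches stand together just downstream of the TSS and the CCAAT matches lie mostly upstream.

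The YY1 matches fell in a narrow place. In all 8 members they read on the strand of the gene and began 11 to 39 bases downstream of the TSS. The letters AAGATGGC contain ATG, and in 7 of the 8 (Ndufa3, Ndufa9, Ndufb8, Ndufc1, Ndufs4, Ndufs6 and Ndufs7) this ATG was the annotated start codon, the exception being Ndufaf8. Of the 618 matches over all windows, 40.0% were on the strand of the gene and downstream of the TSS, and 27.2% were at a start codon. These letters in complex I genes therefore overlapped the beginning of the protein-coding sequence, and Ndufa9, which holds them, had no promoter summit.

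Around the summits themselves the picture differed. Within 100 bp of the promoter summit, NRF1 letters were found in 7 of 41 members (17.1%, Wilson interval 8.53 to 31.3), compared with 10% over all genes with a promoter summit. They were near 0 of 6 core summits, 6 of 27 accessory summits (Ndufa5, Ndufa8, Ndufb4, Ndufb10, Ndufs5 and Ndufs6) and 1 of 7 assembly summits (Ndufaf5). ERR letters were near 3 member summits (7.32%, compared with 2.45%), those of Ndufb4, Ndufs5 and Ndufs6, and each of these 3 held NRF1 letters as well. SP letters were near 11 (26.8%, compared with 49.0%) and CCAAT near 8 (19.5%, compared with 30%). YY1 and ETS letters were near 3 each (7.32%, compared with 2.91% and 14.1%), TATAAA near 2 (4.88%, compared with 2.42%) and the CRE near 1 (2.44%, compared with 2.38%). The 0 of 6 core summits and the 3 summits with ERR letters are small counts, and their intervals over genes are wide.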

How the data were processed

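The ATAC-seq libraries came from BAT nuclei, 2 of each genotype. Reads were aligned by the authors with BWA to mm10, and they called peaks with MACS2 2.1.1 in its ATAC mode, keeping those with a q-value under 0.05 and an enrichment of at least 2.0 fold. The submitters' processing notes also name CASAVA, bcl2fastq 2.2 and cutadapt 1.2.1. The deposited list gives the position of each summit and the −log10 of its q-value, with no values per library, so that depth is unknown. The list sets WT against Dot1L-BKO. Which libraries MACS2 took as its control is not given in the sources used here, nor are the size of any read shift that this mode applied and the handling of multi-mapped reads. If Dot1L-BKO was the control, summits equally high in both genotypes would score low or be missing. RNA-seq libraries were not analysed here.

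Summits were placed on the RefSeq annotation of GRCm38.p6, the same build, on chromosomes 1 to 19. The score of a gene is that of its highest summit within 1 kb of any TSS of its curated mRNAs. Promoter sequences from the RefSeq table were matched by symbol for 39 of 46 members. Shares carry 95% Wilson intervals, and no test was run, since the list gives a single value per summit. The values of 1 member are not reported here. Genes named were otherwise all core and assembly genes, members without a promoter summit, the 5 highest and 5 lowest accessory genes, members with 3 or more summits within 10 kb, members whose summit is near another TSS, and Ndufa4 and Ndufa4l2. Other genes were named as examples of a count. The members and lists were chosen with earlier results of these data known. Alternatives changed the score minimum, the window, the transcripts and the assignment of summits, or merged summits. The counting steps were tested on simulated data. Tools were pysam 0.24.0, scipy 1.17.1, numpy 2.4.6, matplotlib 3.10.9 and pandas 2.3.3 under Python 3.11.15.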

Additional observations from a re-analysis of the deposited data

How the results depend on the processing

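At a score of at least 10, the accessory genes with a promoter summit fell from 27 to 16 of 29, while the share of all genes went from 46.8% to 24.5%, and the members with a summit in the gene body from 24 to 9 of 46, while the share of all genes went from 41.2% to 14.3%, because fewer summits enter the count. Under the other settings the members with a promoter summit numbered 35 (each summit given to its nearest TSS, compared with 42.9% of all genes) to 42 (compared with 51.8% of all genes with 5 kb on each side, 55.8% with 10 kb and 48.2% with predicted mRNAs), and core genes 5 to 6. The gene gained in these 3 settings was Ndufa4l2. The median score of the members ranged from 13.7 to 22.4, the highest at a score of at least 10. The number of summits counted for a gene changed in 20 of the 46 genes with 10 kb on each side, 14 with 5 kb and 13 at a score of at least 10. It changed in 6 with a window from 1 kb upstream to 100 bp downstream, 6 with the nearest TSS only and 2 with predicted mRNAs. It changed in 1 with 500 bp, 1 at a score of at least 5, and 0 after merging summits within 500 bp. No paired analysis was possible because separate libraries have no values in the list, which also kept any replicate from being left out. A gene with no summit is one below the authors' cutoff at an unknown depth, and its chromatin may still be open.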

Other observations

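Of the regulators known for mitochondrial genes, 5 of 6 had a promoter summit (83.3%, 95% Wilson interval 43.6 to 97.0, which includes the 46.8% of all autosomal genes). Gabpa, an ETS factor of respiratory genes, had the highest score, 98.3, above that of any of the 46 complex I genes, followed by Esrra, the receptor that binds ERR motifs, with 59.5. Ppargc1a, the coactivator induced by cold, scored 20.8, and Yy1 and Tfam, the mitochondrial transcription factor, scored 12.5 and 7.05. Nrf1 had no summit within 1 kb of a TSS.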
